A study of Rattus norvegicus with 6 samples.

Results

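The endothelial and vascular genes are 37 genes chosen by name: proteins of endothelial junctions and of the endothelial surface, VEGF receptors and neuropilins, angiopoietins and their TIE receptors, the BMP9 receptor complex, peptide and lipid receptors, haemostasis proteins, endothelial transcription factors and lymphatic markers. A row of exactly that name was found for 32 of the 37 among the 27321 features of the table, and 30 of these were tested among 13486 features. Angpt2, Emcn, Plvap and Procr were lower in diabetic rat inner medulla (IM), Vwf was higher, and the other 25 tested genes did not pass the test. Angpt2 fell 3.88-fold and Emcn 2.63-fold. The defining endothelial markers Pecam1, Cdh5, Tek and Tie1 were not called, with log2 fold changes of 0.04, -0.56, -0.61 and 0.55.

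RNA was sequenced from the IM tip, the terminal part of the renal inner medulla, of 3 control rats and of 3 diabetic rats. Diabetes was induced with streptozotocin (STZ), which destroys the beta cells of the pancreas. All 6 animals were male Sprague-Dawley rats with a labelled age of 3 months. The STZ rats received 62.5 mg/kg STZ into the tail vein, the control rats received vehicle, and tissue was collected 15 days later. Whole IM tip was lysed, so the libraries hold all its cell types, and in such bulk samples fewer cells of a type and less RNA per cell cannot be told apart. Values are normalized counts, the reads on a feature divided by a size factor for the library. Reads on features numbered between 3412311 and 5575171 per library, and 1 read was worth 0.763 to 1.11 normalized counts. Values were not divided by gene length, so levels are compared between libraries and not between genes. The libraries were amplified by PCR without molecular identifiers, so that the floor of 3 reads used for low genes covers counting error only. By the column names the control libraries shared a sequencing lane and the STZ libraries lay on other lanes, so the lane and the diabetic state cannot be told apart.

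Blood enters the renal medulla through descending vasa recta, vessels with a continuous endothelium wrapped by contractile pericytes, and leaves through ascending vasa recta, whose thin, fenestrated endothelium takes back the water and solute that the tubules deliver to the interstitium. The fenestrae of such vessels are spanned by diaphragms built from the protein of Plvap. Angiopoietins 1 and 2 are secreted ligands of the receptor TIE2, encoded by Tek, and in mice the ascending vasa recta do not form normally without them. Endothelium also keeps blood fluid, through surface proteins that activate protein C or start fibrinolysis, and stores von Willebrand factor for haemostasis.

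The defining endothelial markers were present in every library. Pecam1, Cdh5, Tek and Tie1 had at least 65 reads in each, and 26 of the 32 genes were in all 6 libraries above a background level, the value that 95% of olfactory receptor genes do not exceed, which lay between 1.86 and 9.03 normalized counts. Genes were compared with limma on log2(normalized count + 1), adjusted by the Benjamini-Hochberg procedure over all 13486 features whose mean was 5 or more, and called where the adjusted p was under 0.05. This scale understates the change of low genes. Of the 30 tested genes 5 were called, 16.7%, against 2.1% of all features tested. The 4 lower genes make 13.3%, against 0.927% of all features, and the 1 higher gene 3.33%, against 1.17%. The groups did not overlap for 11 of the 30 genes, 36.7%, against 20.3% of all features, with 8 lower and 3 higher in the STZ rats. Without adjustment, 12 of the 30 genes had a p under 0.05. The share of all features under it is not given here, so this and later unadjusted counts stand without a background. Leaving out a library left 2 to 5 genes called, with 2 in each fit without control replicate 1, control replicate 2, STZ replicate 2 or STZ replicate 3, and 3 without STZ replicate 1.

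The genes did not all move in the same direction. Of the 30 tested genes 17 had a log2 fold change below 0 and 13 above 0, and their median was -0.18 with quartiles of -0.60 and 0.18. The median depended on the libraries: it was -0.06 without STZ replicate 1, -0.0952 without STZ replicate 2, -0.28 without STZ replicate 3 and -0.31 without control replicate 2. Over all features tested the median was 0.01, the quartiles were -0.28 and 0.30, and 49.5% lay below 0. Summed over the 32 genes, the level was 16122, 14439 and 13798 normalized counts in control rats 1, 2 and 3, against 7911, 8017 and 7301 in STZ rats 1, 2 and 3. The summed level in STZ rats was 52.4% of that in control rats, and the groups lay far apart. Without Angpt2 and Emcn, the other 30 genes summed to 5328 ± 636 (SD, n = 3) in control and 4629.6 ± 304 (SD, n = 3) in STZ rats, 86.9% of control, with overlapping groups. The fall of the sum was therefore mostly that of these 2 genes.

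**Figure D1:**
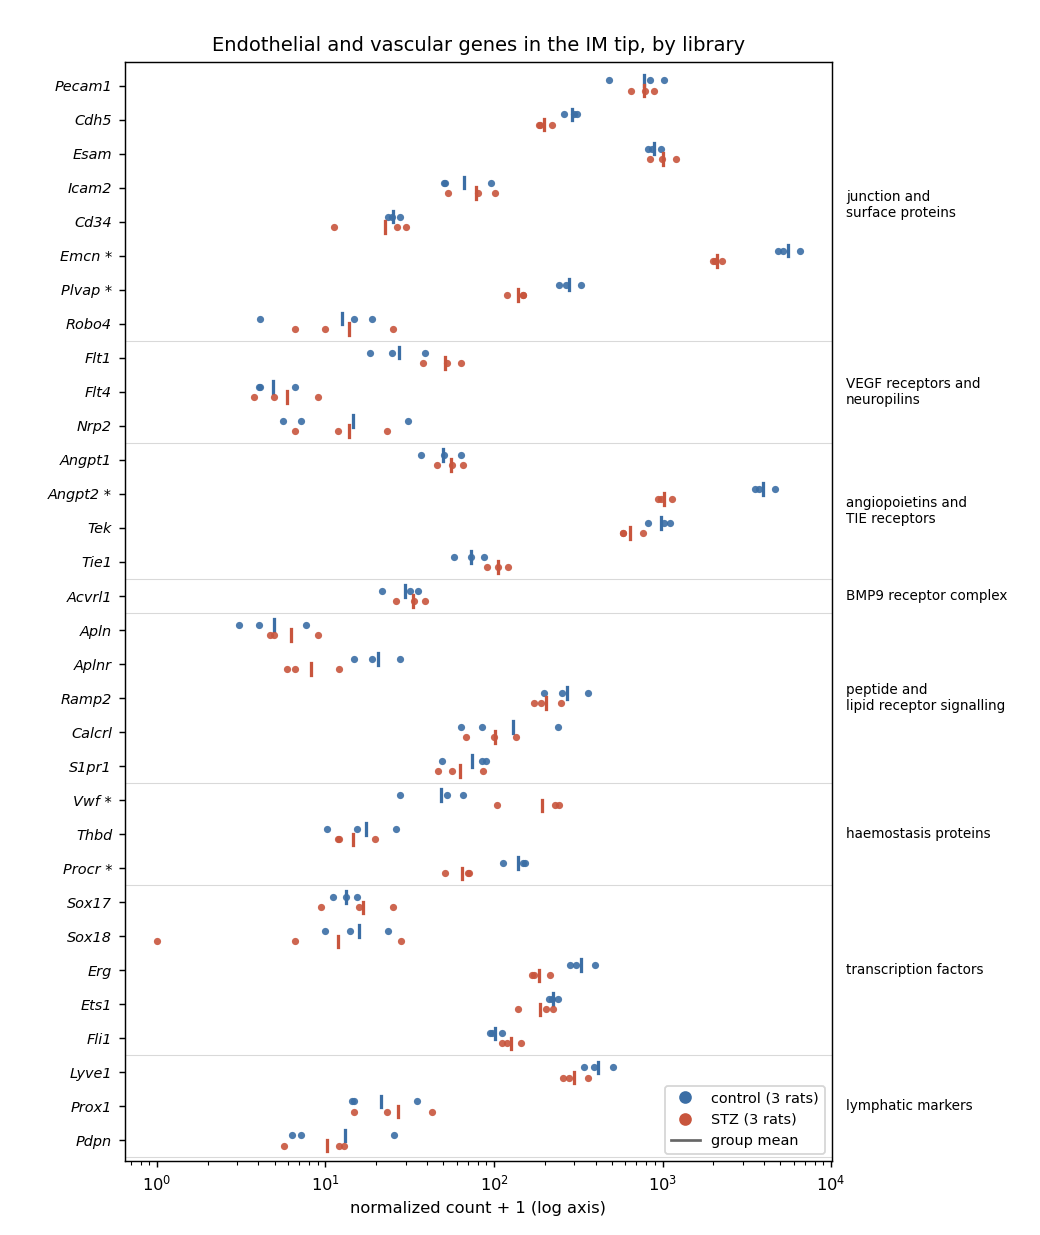
Each point is the normalized count plus 1 of a library (log axis) for the 32 genes with a row, grouped by role, with control rats above STZ rats within a gene and vertical bars at the group means; an asterisk marks an adjusted p under 0.05. The 3 STZ points lie left of the 3 control points for Angpt2, Emcn, Plvap and Procr and right of them for Vwf, while most other genes overlap.

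Among the angiopoietins and TIE receptors, the ligand Angpt2 fell and its companion Angpt1 did not pass the test. Angpt2 (rn4 chr16:75891756-75942254) encodes a ligand that can activate or block TIE2 depending on the setting. Its normalized counts were 3713, 4619 and 3511 in control rats 1, 2 and 3, against 936, 1142 and 976 in STZ rats 1, 2 and 3. All 3 STZ values lay far below the lowest control value. The means were 3947 ± 589.9 (SD, n = 3) and 1018 ± 109.5 (SD, n = 3), a 3.88-fold lower level in STZ rats (log2 fold change -1.95, SE 0.19, adjusted p = 0.00072 by limma). This call held in all 19 alternatives of processing. Angpt1, the TIE2 agonist secreted by perivascular cells, had 49.2, 62.5 and 35.6 in the control rats against 64.1, 55.4 and 45.2 in the STZ rats, with overlapping groups (log2 fold change 0.18, SE 0.27, adjusted p = 0.863). The reads on Angpt2 per read on Angpt1 went from 73.8 to 98.6 in control rats to 14.6 to 21.6 in STZ rats, without overlap (p = 0.1 in a two-sided exact permutation test, which cannot go lower with 3 against 3).

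The receptors themselves had fold changes of opposite sign, and neither passed the test. Tek, which encodes TIE2 (rn4 chr5:115047194-115196172), had 1099, 819 and 1016 normalized counts in control rats 1, 2 and 3, against 582, 762 and 578 in the STZ rats. Every STZ rat was below every control rat, by 1.53-fold in the means (log2 fold change -0.61, SE 0.20, adjusted p = 0.156). Tie1, the related receptor without a known strong ligand of its own that modulates TIE2, had 86.1, 57.2 and 72.3 in the control rats against 90.1, 119.7 and 104 in the STZ rats, with every STZ rat above every control rat (log2 fold change 0.55, SE 0.23, adjusted p = 0.286). Neither was called in any of the 19 alternatives. Reads on Angpt2 per read on Tek were 3.38, 5.64 and 3.45 in control and 1.61, 1.5 and 1.69 in STZ replicates, again without overlap (exact permutation p = 0.1). The ratios of Angpt2 to Angpt1 and to Tek were chosen after values were seen. They restate the fall of Angpt2 and are not a further result.

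The junction and surface proteins held 2 called genes among 8 tested, both lower: Emcn, which encodes endomucin, a sialomucin on the surface of venous and capillary endothelium, and Plvap, which encodes the diaphragm protein of fenestrae. Their promoters and that of Procr, which is described after them, are shown because they belong to the called lower genes with an entry in the RefSeq promoter table (GRCr8); Angpt2 and Vwf were not matched there. Each runs 5′ to 3′ on the strand of the gene over 300 bases, from 250 before the annotated start to 50 from it on. Capitals mark AGGAAG or its reverse complement CTTCCT, letters that hold the GGAA core bound by ETS factors such as those of Erg, Ets1 and Fli1. The Emcn promoter lies at chr2:228564289-228564588 (+ strand), that of Plvap at chr16:18231230-18231529 (- strand) and that of Procr at chr3:164714477-164714776 (+ strand).
Emcn: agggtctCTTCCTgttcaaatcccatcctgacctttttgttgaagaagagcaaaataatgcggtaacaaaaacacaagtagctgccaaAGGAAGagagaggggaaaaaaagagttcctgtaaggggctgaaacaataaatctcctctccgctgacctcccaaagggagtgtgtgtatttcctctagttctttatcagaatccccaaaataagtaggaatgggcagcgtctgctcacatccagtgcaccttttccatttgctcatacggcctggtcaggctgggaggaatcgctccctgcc
Plvap: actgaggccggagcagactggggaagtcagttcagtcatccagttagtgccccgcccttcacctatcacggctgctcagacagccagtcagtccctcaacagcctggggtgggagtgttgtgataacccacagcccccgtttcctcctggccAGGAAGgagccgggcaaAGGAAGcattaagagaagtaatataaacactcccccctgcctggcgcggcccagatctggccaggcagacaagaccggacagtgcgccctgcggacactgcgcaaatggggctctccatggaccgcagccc
Procr: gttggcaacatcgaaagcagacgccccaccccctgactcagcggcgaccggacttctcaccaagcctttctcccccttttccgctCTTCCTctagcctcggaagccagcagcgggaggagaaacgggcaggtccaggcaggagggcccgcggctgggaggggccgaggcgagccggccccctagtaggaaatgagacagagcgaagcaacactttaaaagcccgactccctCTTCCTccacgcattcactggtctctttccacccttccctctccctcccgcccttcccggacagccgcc
Each of the 3 held 2 matches, which began at positions -243 and -162 from the start in Emcn, -98 and -81 in Plvap, and -165 and -19 in Procr. Of the 20 listed genes with a promoter in the table, 14 held at least 1 match on either strand (70%, counted by gene). Of all 33469 promoters 34.5% held a match, counted by promoter, so the units of these shares differ. The matches describe letters in these windows; no binding was measured.

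Emcn (rn4 chr2:234892270-234972223) had 6520.1, 5184 and 4827 normalized counts in control rats 1, 2 and 3, against 2246, 2003 and 2037 in STZ rats 1, 2 and 3. The STZ rats lay close together and all far below the control rats, with means of 5510.4 ± 892 (SD, n = 3) in control and 2095 ± 132 (SD, n = 3) in STZ rats. The level was 2.63-fold lower (log2 fold change -1.38, SE 0.20, adjusted p = 0.00679), and it stayed under the threshold in 18 of 19 alternatives, the exception being limma without the intensity trend (adjusted p = 0.0789). Plvap (rn4 chr16:18668569-18678431) had 328, 243 and 266 in the control rats against 148, 119 and 147 in the STZ rats. The groups did not overlap, with means of 279 ± 44.2 and 138 ± 16.4 (SD, n = 3 per group), 2.03-fold lower in STZ rats (log2 fold change -1.01, SE 0.20, adjusted p = 0.029). The adjusted p of Plvap was above 0.05 when any library but control replicate 3 was left out, at 0.0845 without control replicate 1, 0.0716 without control replicate 2, 0.0618 without STZ replicate 1, 0.134 without STZ replicate 2 and 0.0673 without STZ replicate 3, while its log2 fold change stayed between -1.10 and -0.89 in these fits.

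The other 6 junction and surface genes were not called. Cdh5, VE-cadherin of the endothelial adherens junction (rn4 chr19:779349-794317), was the closest, with 297, 259 and 309 normalized counts in the control rats against 183, 219.6 and 186 in the STZ rats. Every STZ rat was below every control rat, yet the difference did not pass the test (log2 fold change -0.56, SE 0.18, adjusted p = 0.163). Pecam1, the platelet and endothelial adhesion molecule CD31, had 837, 483 and 1019.6 in the control rats against 781, 887 and 653 in the STZ rats. Its log2 fold change was 0.04 with a 95% confidence interval from -0.54 to 0.63, which does not reach the fall of Emcn, Plvap, Procr or Angpt2; the Pecam1 locus in the table spans 1010 bases only, so it may miss most of the gene. Esam, an immunoglobulin protein of tight junctions, ranged from 819 to 982 in the control group and 845 to 1195 in STZ rats (log2 fold change 0.18, SE 0.19). Icam2, a ligand of leukocyte integrins, Cd34, a sialomucin, and Robo4, a guidance receptor that stabilizes vessels, had log2 fold changes of 0.27, -0.28 and 0.18 with SEs of 0.32, 0.39 and 0.68, and their groups overlapped. Robo4 was low, with 3 to 24 reads in a library.

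**Figure D2:**
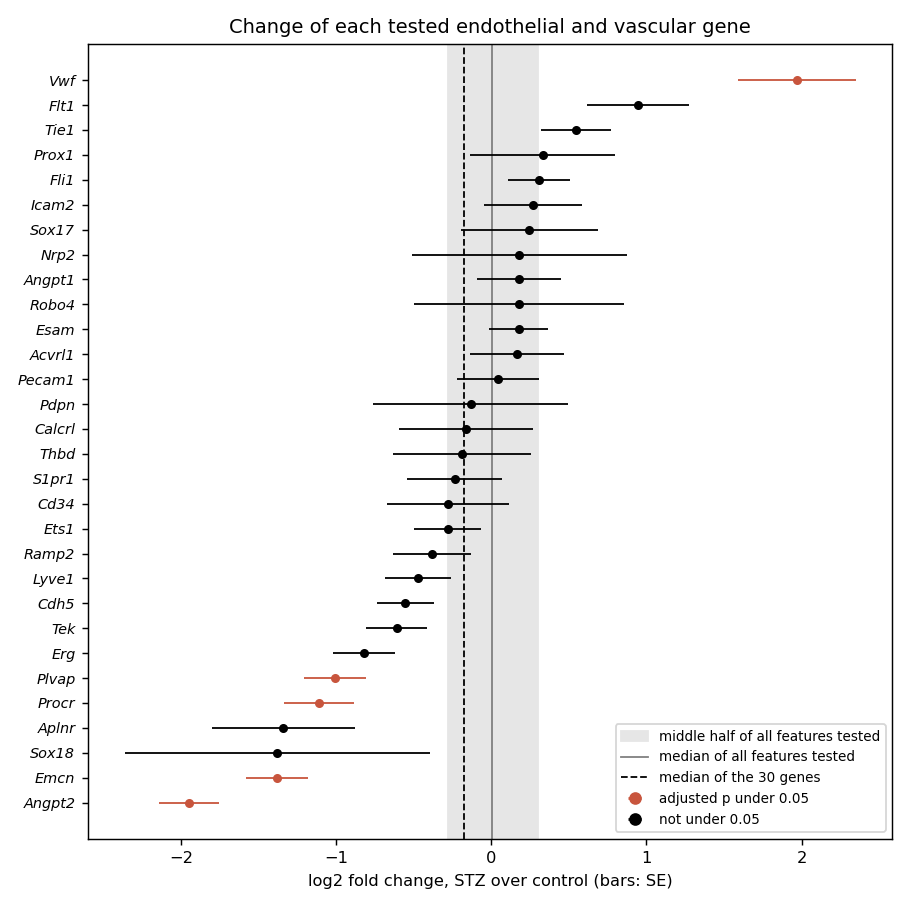
Points are log2 fold changes of STZ over control for the 30 tested genes (log2 of the normalized count plus 1), ordered by size, and bars are standard errors from limma; the grey band spans the quartiles of all 13486 features tested. Angpt2 at -1.95 and Vwf at 1.97 are the ends of the order, and the median of the 30 genes, -0.18, lies inside the band.

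The haemostasis proteins included calls in both directions. Procr encodes the endothelial protein C receptor, which presents protein C for activation (rn4 chr3:146268693-146272861). It had 148, 112 and 151 normalized counts in control rats 1, 2 and 3, against 69.6, 50.4 and 69.3 in STZ rats 1, 2 and 3. All STZ rats were below all control rats, with means of 137 ± 21.7 and 63.1 ± 10.98 (SD, n = 3 per group), 2.17-fold lower (log2 fold change -1.11, SE 0.23, adjusted p = 0.0341). Leaving out any single library raised the adjusted p of Procr above 0.05, to 0.104, 0.0653 and 0.0585 without control replicates 1, 2 and 3 and to 0.0617, 0.142 and 0.0673 without STZ replicates 1, 2 and 3. Thbd, thrombomodulin, which turns thrombin into the activator of protein C, was low, with 9 to 33 reads in a library and overlapping groups (log2 fold change -0.19, SE 0.44, adjusted p = 0.923).

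Vwf, which encodes von Willebrand factor, the adhesive protein that endothelium stores in Weibel-Palade bodies, was the 1 called gene that rose (rn4 chr4:161723414-161854759). Its normalized counts were 26.7, 51.9 and 64.6 in control rats 1, 2 and 3, against 103, 227 and 242 in STZ rats 1, 2 and 3. The lowest STZ rat was above the highest control rat, although the values within each group spread more than 2-fold. The means were 47.7 ± 19.3 and 191 ± 76.3 (SD, n = 3 per group), 4.0-fold higher in STZ rats (log2 fold change 1.97, SE 0.38, adjusted p = 0.0264). The adjusted p was 0.0688 without control replicate 1, 0.0855 without control replicate 2, 0.105 without STZ replicate 2, 0.0853 without STZ replicate 3 and 0.056 with equal library totals. It was highest, 0.171, in limma without the intensity trend. Platelets and their precursors also hold Vwf, and their markers were set beside it: 5 of 6 had a row and 2 were tested. Their summed level was 118 to 173 normalized counts in control and 103 to 167 in STZ rats, and Ppbp stayed at or under 3 reads in all libraries. The 2 tested had log2 fold changes of opposite sign with overlapping groups, Itga2b at -0.19 (SE 0.30) and Pf4 at 0.36 (SE 0.27). Neither was called, and the part of platelets in the Vwf values was not tested.

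The receptors for VEGF, the main growth factor of endothelium, were represented by Flt1, Flt4 and Nrp2. Flt1 and Nrp2 were tested, and neither was called by limma or edgeR, with 1, Flt1, at an unadjusted p under 0.05. DESeq2 did not call Flt1 and gave no adjusted p for Nrp2. Of the 30 tested endothelial and vascular genes, 7 had no adjusted p in DESeq2, so DESeq2 could not call them, in this or any other group. Flt1, which encodes VEGFR1, a receptor that binds VEGF tightly and limits its signal, had 17.4, 23.6 and 37.8 normalized counts in the control rats against 37.1, 51.4 and 62.2 in the STZ rats. The groups overlapped by a narrow margin, between control replicate 3 and STZ replicate 1 (log2 fold change 0.95, SE 0.33, adjusted p = 0.189). Nrp2, a co-receptor of lymphatic VEGF signalling, was low and uneven, at 4.58 to 30.1 in the control group and 5.57 to 22.1 in STZ rats. Flt4, the lymphatic receptor VEGFR3, had 3 to 8 reads in a library, too few for the test. Nrp1, a VEGF co-receptor, was present only in a feature merged with an overlapping gene, so its own reads could not be separated; that feature had 107 ± 18.6 normalized counts in the control group against 126 ± 45.9 in STZ rats (SD, n = 3 per group). Kdr, which encodes VEGFR2, was not analysed here.

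Acvrl1, the endothelial type I receptor ALK1 for BMP9, had 30.8, 20.6 and 34.5 normalized counts in the control rats against 25.1, 32.6 and 38.1 in the STZ rats, with overlapping groups (log2 fold change 0.17, SE 0.30, adjusted p = 0.896). Its co-receptor Eng was not analysed here, nor was the matrix protein Mmrn2. Egfl7, a protein that endothelium secretes, was present only in a feature merged with Agpat2, at 144 ± 31.5 in the control group against 137 ± 22.8 in STZ rats (SD, n = 3 per group).

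Of the peptide and lipid receptor genes none of the 4 tested was called by limma, edgeR or DESeq2, and 1, Aplnr, had an unadjusted p under 0.05. Aplnr, the apelin receptor of venous and sprouting endothelium, had 26.7, 13.7 and 17.8 normalized counts in the control rats against 5.57, 4.95 and 11.04 in the STZ rats. Each STZ rat was below each control rat, but the counts were small, 5 to 26 reads, and the difference did not pass the test (log2 fold change -1.34, SE 0.46, adjusted p = 0.184). Apln, its ligand, had 2 to 8 reads and was not tested. Ramp2 and Calcrl together form the adrenomedullin receptor. Ramp2 had 362, 253 and 196 in the control rats against 249, 188 and 173 in the STZ rats (log2 fold change -0.38, SE 0.25, adjusted p = 0.549), and Calcrl had 239.9, 83.9 and 62.3 against 134, 67.3 and 99.4, where control replicate 1 stood above the other 5 libraries (log2 fold change -0.16, SE 0.43, adjusted p = 0.933). S1pr1, the sphingosine 1-phosphate receptor that tightens the endothelial barrier, ranged from 48.1 to 88.2 in the control group and 45.5 to 85.3 in the STZ group.

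None of the 5 transcription factors was called by limma or edgeR, and 1, Erg, had an unadjusted p under 0.05 and was called by DESeq2. Erg, an ETS factor that maintains endothelial identity (rn4 chr11:35655475-35760055), had 395, 307 and 283 normalized counts in control rats 1, 2 and 3, against 167, 214 and 173 in STZ rats 1, 2 and 3. Every STZ rat was below every control rat, with means of 328 ± 58.97 and 184 ± 25.4 (SD, n = 3 per group), 1.78-fold lower, and the adjusted p missed the threshold (log2 fold change -0.82, SE 0.20, adjusted p = 0.0651). It was under 0.05 in 7 of 19 alternatives, among them DESeq2 (0.00975), quantile normalization (0.0289), equal library totals (0.0291) and the fit without control replicate 3 (0.0487).

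The related ETS factors Fli1 and Ets1 were not called, and whether they differ from Erg was not tested. Fli1 had 93.3, 96.1 and 110.2 normalized counts in the control rats against 144, 111 and 118 in the STZ rats, all STZ values above all control values, if only just (log2 fold change 0.31, SE 0.20, adjusted p = 0.55). Ets1 had 219, 212 and 239 in the control rats against 222, 203 and 138 in the STZ rats (log2 fold change -0.28, SE 0.22, adjusted p = 0.635). Sox17, a factor of arterial endothelium, and Sox18, a factor of lymphatic and blood vessel development, were low. Sox17 ranged from 10.02 to 14.4 in the control group and 8.36 to 24.1 in STZ rats, and Sox18 from 8.905 to 22.6 in the control group and 0 to 27.1 in STZ rats, with no read in STZ replicate 2 (log2 fold change -1.38, SE 0.98).

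The lymphatic markers were present at very different read numbers. Lyve1, the hyaluronan receptor of lymphatic endothelium that some macrophages also carry, had 508, 342 and 391 normalized counts in the control rats against 278, 358 and 256 in the STZ rats. STZ replicate 2 lay among the control values, and Lyve1 was not called (log2 fold change -0.47, SE 0.21, adjusted p = 0.333). Prox1, the lymphatic master factor, had 12 to 45 reads in a library, and Pdpn, podoplanin, 5 to 22, with overlapping groups and SEs of 0.47 and 0.63 on the log2 scale. At an unadjusted p under 0.05 stood 1 of the 3 lymphatic markers, Lyve1, and neither edgeR nor DESeq2 called any.

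To set the genes against a general endothelial level, each was divided by the geometric mean of Pecam1, Cdh5, Tek and Tie1 in the same library, a measure chosen after values were seen. This mean was 277 to 392 normalized counts in control and 292 to 365 in STZ rats, with overlapping groups, although within it Cdh5 and Tek were lower and Tie1 higher in each STZ rat. The ratio of Angpt2 to it was 9.48, 16.7 and 8.996 in control and 3.18, 3.13 and 3.34 in STZ replicates, 3.65-fold lower. The ratio of Emcn was 2.38-fold lower, that of Procr 1.91-fold, that of Plvap 1.804-fold and that of Erg 1.63-fold. Vwf was 4.28-fold higher and Flt1 2.11-fold. The ratio of Aplnr was 2.33-fold lower and that of Lyve1 1.26-fold. With Cdh5, Tek and Tie1, which are part of the divisor, these are the 12 of 30 genes, 40%, whose groups did not overlap, 9 lower and 3 higher, against 16.2% of all features divided the same way. Cdh5, Tek and Tie1 were apart before the division too, and each was divided by a mean that holds it, so the shares are not like for like. The exact permutation p was 0.1 for each of the 12, the value that any groups without overlap give at 3 against 3. When limma was run on all features scaled this way, Angpt2, Emcn and Vwf stayed under 0.05 and Plvap (adjusted p = 0.185) and Procr (0.156) did not, and the median log2 fold change of the 30 genes was -0.0403.

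**Figure D3:**
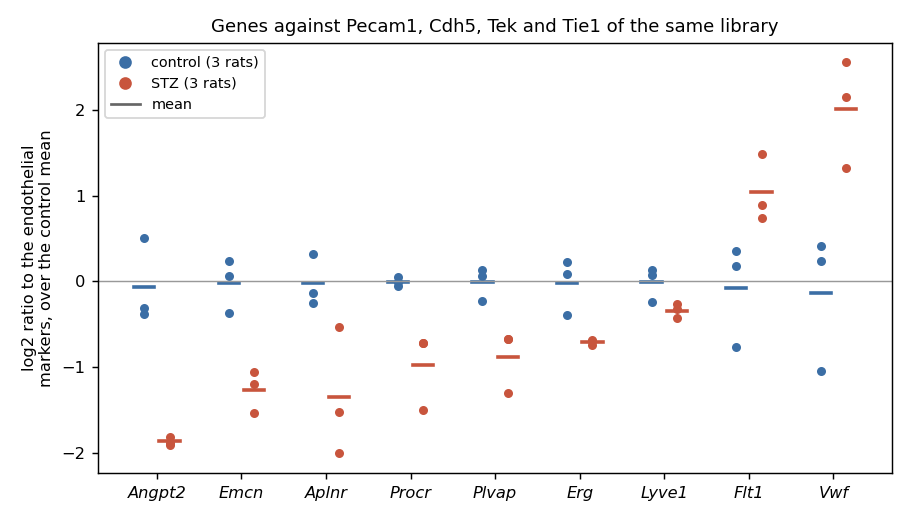
Points are the log2 ratio of a gene to the geometric mean of Pecam1, Cdh5, Tek and Tie1 of the same library, set to 0 at the log2 of the control mean, with horizontal bars at the mean of each group of 3 rats. The genes are those outside the divisor whose groups did not overlap, and the 3 STZ points lie below the 3 control points for Angpt2, Emcn, Aplnr, Procr, Plvap, Erg and Lyve1 and above them for Flt1 and Vwf.

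Genes of the same pathways were read from 5 lists of partners, ligands and further endothelial genes. Of 122 listed genes 96 had a row and 77 were tested, and 2 were lower and 1 higher, 3.9% called against 2.1% of all features tested, with a median log2 fold change of -0.05. Partners of VEGF and the angiopoietins (11 tested), BMP, Notch and ephrin genes of vessels (13 tested) and ligands and receptors around adrenomedullin and S1P (9 tested) held no called gene. Unadjusted p-values were under 0.05 for 3, 2 and 2 of them, edgeR called none and DESeq2 called Vegfa, the main VEGF gene, and Efna1. The members with the highest counts were Pgf and Sema3c, a placental growth factor and a semaphorin, with log2 fold changes of -0.47 and 0.58; Efna1 and Jag1, ligands of Eph and Notch receptors, with -0.69 and 0.21; and Ednrb and Ramp3, receptor proteins for endothelin and adrenomedullin, with 0.30 and -0.04. None of these 6 passed the test, with adjusted p from 0.148 to 0.97 by limma. Closer to the threshold was Notch1, with 16.4, 25.2 and 25.6 normalized counts in the control rats against 57.6, 43.5 and 49.2 in the STZ rats. Its groups did not overlap (log2 fold change 1.14, SE 0.28, adjusted p = 0.0645 by limma).

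Among 16 tested anticoagulant and adhesion proteins, Plat was called, and it was lower. Plat encodes tissue plasminogen activator, the endothelial starter of fibrinolysis, and had 11051, 14469 and 9503 normalized counts in the control rats against 4539, 4625 and 3861 in the STZ rats. The groups were far apart, 2.69-fold lower in STZ rats (log2 fold change -1.41, SE 0.23, adjusted p = 0.0125). F11r, a tight junction protein shared with epithelium and the next of the list by counts, was at 3131 ± 432 and 3087 ± 112 (SD, n = 3 per group). The adjusted p of Plat was 0.0795 without control replicate 2 and 0.0517 without STZ replicate 2. It was 0.0993 without the intensity trend and 0.0613 when scaled to endothelial markers.

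Among 28 tested further genes high in endothelium, Klf4, a transcription factor induced by blood flow, had 87.1, 98.4 and 111 normalized counts in the control rats against 23.2, 33.6 and 37.1 in the STZ rats. It was 3.16-fold lower without overlap (log2 fold change -1.65, SE 0.25, adjusted p = 0.0084), and this call held in each fit without a library. Sparcl1, a matrix-binding protein, had 58.4, 156 and 64.6 in the control rats against 295, 342 and 245 in the STZ rats, 3.17-fold higher (log2 fold change 1.79, SE 0.33, adjusted p = 0.0217). Its adjusted p was 0.0688 without control replicate 1 and 0.0892 without STZ replicate 2. Tm4sf1 and Fabp4, the highest of this list by counts, had log2 fold changes of -0.44 and -0.26 and did not pass the test. Epithelial and stromal cells also express Plat, Klf4 and Sparcl1, and the cells of origin were not separated here.

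Markers of other cell types moved between the groups as well, with 2 lower and 6 higher among 52 tested, 15.4% against 2.1% of all features. Among pericyte and smooth muscle markers, 2 of 6 tested rose: Cspg4, the pericyte proteoglycan NG2, from 8.82 ± 2.54 to 39.9 ± 13.2 normalized counts (SD, n = 3 per group; adjusted p = 0.0196) and Tagln, an actin-binding protein of smooth muscle, from 222 ± 36.9 to 558 ± 22.6 (adjusted p = 0.00576). The summed level of the pericyte and smooth muscle markers was 517 to 611 in control and 900.5 to 1033 in STZ rats, without overlap. Tagln had the highest mean of these genes, and the sum without it was not taken. The other 4 tested, Pdgfrb, Rgs5, Des and Kcnj8, were not called and their groups overlapped. Their log2 fold changes were -0.16, 0.48, -0.23 and -0.02. Among fibroblast and interstitial markers, 2 of 6 rose, Pdgfra, a receptor of stromal cells, from 535 ± 134 to 1073 ± 126 (adjusted p = 0.0364) and Postn, a matrix protein, from 2.05 ± 1.29 to 31.5 ± 9.74 (adjusted p = 0.00858), while Dcn, with the highest counts, was at 7619 ± 808 and 6379 ± 2955 and their summed level overlapped. Without a library, Cspg4 was no longer called in 4 of 6 fits (adjusted p 0.0533 to 0.089, without control replicate 2 or any of the STZ replicates), Pdgfra in 5 (0.0706 to 0.173, all but the fit without control replicate 3) and Postn in 1 (0.0951, without STZ replicate 2). These shifts stand beside the values of Angpt2, Emcn, Plvap, Procr and Vwf, and their part in those values was not tested.

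Of the blood markers, none of 12 leukocyte genes was called (1 at an unadjusted p under 0.05, 0 by edgeR and 1, Cd14, by DESeq2). Cd74, with the highest counts, was at 1451 ± 989.8 in the control group against 1927 ± 651 in STZ rats, and the summed level overlapped at 1582 to 5363 and 3027 to 5129.7 normalized counts. Itga2b, the platelet gene with the highest counts, was at 93.6 ± 23.9 and 84.9 ± 33.2. Of 3 erythroid genes Slc4a1, the anion exchanger that intercalated cells of the collecting duct also carry, fell from 171 ± 17.6 to 80.6 ± 20.3 (adjusted p = 0.0367, and 0.0533 to 0.107 without any single library), and the globin gene Hbb was at 2469.5 ± 1202 and 1362 ± 596 with overlapping groups.

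No gene of 8 tested for collecting duct principal cells was called (5 at an unadjusted p under 0.05, 0 by edgeR and 2, Aqp2 and Scnn1g, by DESeq2). Of the 5, Aqp2, Aqp3, Scnn1b and Scnn1g were higher in STZ rats (log2 fold changes 0.84, 0.91, 0.79 and 0.93) and Hsd11b2 was lower (-0.83). The median of the 8 was 0.55. Fxyd4, which had the highest counts, was at 29349 ± 6982 and 36746 ± 11272 normalized counts in control and STZ rats. Of 7 tubule genes Umod, the uromodulin of the thick ascending limb, fell from 593 ± 331 to 69.8 ± 17.6 (adjusted p = 0.00353), while Cldn10, with the highest counts, was at 1560.3 ± 252 and 1873 ± 428. Of 6 urothelial genes Upk3a and Upk1b, uroplakins of the surface layer, rose from 35.3 ± 12.8 to 344 ± 19.7 (adjusted p = 0.000117) and from 29.4 ± 8.63 to 70.3 ± 13.5 (adjusted p = 0.0489, and 0.0807 to 0.204 in the fits without control replicate 1, control replicate 2 or any of the STZ replicates). The podocyte gene Synpo did not exceed 3 reads in any library, and Podxl, which endothelium also expresses, was at 609 ± 327 and 585 ± 173. How much the share of each cell type in a tip sample bears on the endothelial values was not tested.

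**Figure D4:**
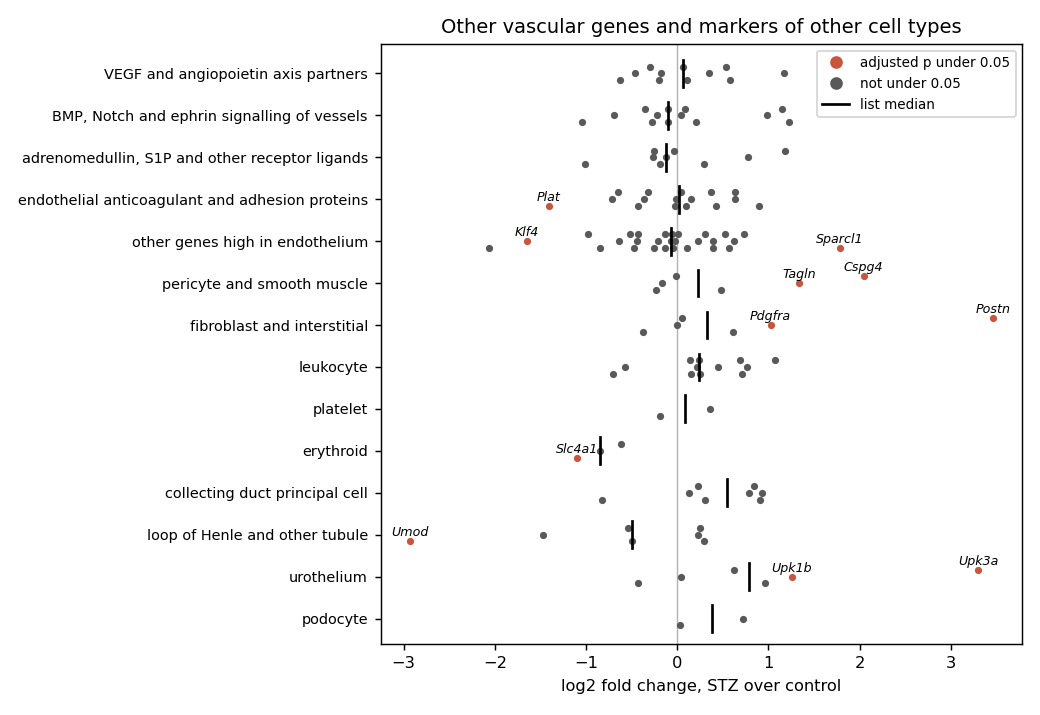
Points are log2 fold changes of STZ over control for the tested genes of 5 lists of further vascular genes and 9 lists of other cell types, with a vertical bar at the median of each list. Named points have an adjusted p under 0.05: Plat and Klf4 lower and Sparcl1 higher among the vascular lists, and 2 lower and 6 higher among the markers of other cell types.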

How the data were processed

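RNA from the IM tip of 3 control and 3 STZ rats was converted to cDNA with a PCR-based kit and sequenced on a HiSeq2000. Per the submitters' processing notes the authors used STAR 2.3.1t, the build rn4 and DESeq 1.16.0, and uniquely mapped reads were counted per Ensembl RGSC3.4 gene. How reads were counted, by which program and with or without strand, is not given in the sources used here, so antisense and overlapping genes may share reads. The deposited signal is the read count of a feature divided by a size factor for its library, made by the authors before deposit. Every value (100% in each library, to a share of 1e-06 of the value) was a whole multiple of a library's step, which gave back whole reads. Of 27321 features 527 merge overlapping genes and 2720 lie between genes. Coordinates are those of rn4 in the deposited table; promoters come from RefSeq on GRCr8 and were matched by symbol for 20 of the 37 genes.

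Genes were matched by exact name, and the members and all lists were chosen with earlier results of these data known. All listed endothelial and vascular genes are named; from the pathway lists the called genes and the 2 highest means per list, and from the cell type lists the called genes and the highest mean. Some genes of the pathway and cell type lists are not reported here and enter no count of those lists. Genes mentioned beside these, and the ratios between genes, were chosen after values were seen. The test was limma 3.58.1 under R 4.3.3, with a prior variance that follows intensity, on log2 values after adding 1, over 13486 features with a mean of at least 5, since the values are not counts. edgeR 4.0.16 and DESeq2 1.42.0 on the recovered reads were alternatives only. The 19 alternatives changed the pseudocount (0.5, 5), the minimum mean (1, 20, none), the normalization (equal library totals, quantile), the moderation (no trend, robust) or the tool (edgeR, DESeq2), added the replicate block, left out each of the 6 libraries in turn and, chosen after seeing the data, scaling to endothelial markers. The samples are numbered and nothing in the labels ties a control to an STZ rat of the same number.

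The tests were checked on simulated data of the same 13486 features, with 100 changed by a log2 of 1 and 100 by 2 between STZ and control. The simulated spread between replicates followed the mean count only. No feature had a variance of its own, so recovery and false calls in the real data may differ. At an adjusted p under 0.05 limma recovered 38% and 78% with 7 false calls, edgeR 45% and 77% with 5, and DESeq2 41% and 79% with 11. Tables used pandas 2.3.3 and numpy 2.4.6 under Python 3.11.15, exact tests used scipy 1.17.1, and figures used matplotlib 3.10.9.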

Additional observations from a re-analysis of the deposited data

How the results depend on the processing

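Of the 5 called genes, Angpt2 stayed under an adjusted p of 0.05 in all 19 alternatives, Emcn in 18, Vwf in 13, Plvap in 12 and Procr in 11, and each kept its direction throughout. The number of endothelial and vascular genes called was 5, and it was 1 without the intensity trend, 3 when scaled to endothelial markers and 2 to 5 with a library left out. Over all features 283 were called (158 higher, 125 lower), against 522 with quantile normalization, 31 without the trend, 597 with DESeq2 (3667 features with no adjusted p), 561 with the replicate block, 171 (132 higher, 39 lower) when scaled to endothelial markers and 88 to 352 with a library left out. That scaling was chosen after seeing the data and moves the median log2 fold change of all features from 0.01 to 0.14. The 3 calls among other vascular genes became 6 with quantile normalization, 0 without the trend (16 at an unadjusted p under 0.05), 7 with DESeq2 (14 genes with no adjusted p), 7 with the replicate block and 2 to 4 with a library left out. The 8 calls among markers of other cell types became 2 without the trend and 3 to 7 with a library left out.

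Directions that changed belong to genes that were not called. The log2 fold change of Pecam1 was -0.0018 with edgeR and -0.014 with DESeq2, that of Nrp2 -0.0542 and -0.0713. With a library left out, values ran from -0.27 to 0.27 for Pecam1, -0.29 to 0.95 for Nrp2, -0.54 to 0.17 for Cd34, -0.50 to 0.60 for Robo4, -0.0297 to 0.37 for Angpt1, -0.047 to 0.32 for Acvrl1, -0.55 to 0.41 for Calcrl, -0.51 to 0.16 for Thbd, -0.10 to 0.61 for Sox17, -0.0717 to 0.75 for Prox1 and -0.50 to 0.51 for Pdpn. The causes were not tested.

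Same-numbered control and STZ libraries deviated from their group means with r = 0.574, -0.0148 and 0.496 for numbers 1, 2 and 3. Not every library correlated best with its own number (STZ replicate 2 did so with control replicate 3, r = 0.27). The background level from olfactory receptor genes was 2.05, 6.10 and 8.90 in control replicates 1, 2 and 3. It was 1.86, 5.93 and 9.03 in STZ replicates 1, 2 and 3. Whether same-numbered libraries share more than a number was not tested, and the main fit has no term for it. With the replicate block 6 endothelial and vascular genes were called, Erg (adjusted p = 0.0414) beside the 5. A minimum mean of 20 leaves no value for Robo4, Nrp2, Aplnr, Thbd, Sox17, Sox18 and Pdpn. At 3 rats a group and these depths, SEs of 0.18 to 0.98 on the log2 scale limit what a gene can show.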
